A study of Mus musculus with 3 samples.

Results

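Dividing endothelial cells (EC) of the mouse Peyer's patch (PP) were taken from single-cell RNA-seq of sorted PP EC. A cell counted as EC when Pecam1, Cdh5, Egfl7, Emcn and Flt1 together gave at least 3 unique molecular identifiers (UMIs, each standing for 1 captured mRNA molecule) and when Col1a1, Col1a2, Dcn, Pdgfra and Lum together gave fewer. It counted as dividing when Mki67, Top2a, Cdk1, Birc5 and Ube2c together gave at least 4 UMIs. By this rule 133 of 8056 EC were dividing, among 11466 cells that passed a quality filter (at least 500 genes and 1000 UMIs, at most 10% mitochondrial UMIs) out of 12480 barcodes. The remaining 7923 are called other EC.

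Each of the 3 libraries pooled cells of male and female mice aged 6-10 weeks. The control library came from C57BL/6 mice. The 2 EC-iCOUPOE libraries, replicates 1 and 2, came from CDH5(PAC)CreERT2;COUP-TFIIOE/OE mice, in which tamoxifen turns on COUP-TFII (gene Nr2f2) in cells with Cdh5 promoter activity. PP EC were isolated 14-19 days after tamoxifen. The study's text speaks of Cre-negative controls given tamoxifen and of WT mice, whereas the labels call the control library WT and do not say whether its mice received tamoxifen. They also give no background strain for the transgenic line, so strain, transgene and library cannot be told apart with 1 control library. They call all cells blood EC, yet 893 of 4516 EC of replicate 1 and 102 of 1071 EC of replicate 2 scored highest for lymphatic markers, against 0 of 2469 in the control.

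Endothelium of adult tissue is mostly quiescent, and its few divisions supply growth and replacement of vessels. A dividing cell first licenses and copies its DNA (S phase), then builds the spindle, condenses its chromosomes and separates them (G2 and mitosis, G2/M), and each stage has its own set of transcripts. In PP, blood passes from arteries through capillaries (CapEC) into postcapillary venules (PCV) and high endothelial venules, whose high EC (HEC) carry the addressins that recruit lymphocytes, and capillary resident progenitors (CRP) are immature capillary cells marked by Apln and Esm1.

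The 5 genes of the rule act from S phase to the end of mitosis. Mki67 coats mitotic chromosomes, Top2a untangles replicated DNA, Cdk1 is the kinase that drives entry into mitosis, Birc5 (survivin) belongs to the chromosomal passenger complex, and Ube2c feeds ubiquitin to the anaphase-promoting complex. In GRCm38 (mm10) they lie on chr7:135689784-135716361 (Mki67, minus strand), chr11:98992943-99024189 (Top2a, minus), chr10:69335146-69352938 (Cdk1, minus), chr11:117849251-117855743 (Birc5, plus) and chr2:164769898-164778822 (Ube2c, plus). Many genes of late division share 2 promoter elements, the cell cycle genes homology region (CHR) and the CCAAT box, so the 150 bases before each RefSeq start are printed 5′ to 3′ on the gene's strand (GRCm38.p6; chr7:135716380-135716529, chr11:99024190-99024339, chr10:69352913-69353062, chr2:164769779-164769928 and chr11:117849087-117849236, in the printed order). Capitals mark a CHR, which was searched as TTTGAA, as its complement on the opposite strand TTCAAA and as the palindromic variant TTCGAA. They also mark a CCAAT box, which was searched as written and as its complement on the opposite strand ATTGG.

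Mki67: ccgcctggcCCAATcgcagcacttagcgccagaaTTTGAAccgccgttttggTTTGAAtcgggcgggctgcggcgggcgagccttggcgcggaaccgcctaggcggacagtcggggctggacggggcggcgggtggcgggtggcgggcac
Top2a: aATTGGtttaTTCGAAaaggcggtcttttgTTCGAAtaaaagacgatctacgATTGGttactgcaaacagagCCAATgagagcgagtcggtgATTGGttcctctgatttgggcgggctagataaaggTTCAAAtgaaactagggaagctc
Cdk1: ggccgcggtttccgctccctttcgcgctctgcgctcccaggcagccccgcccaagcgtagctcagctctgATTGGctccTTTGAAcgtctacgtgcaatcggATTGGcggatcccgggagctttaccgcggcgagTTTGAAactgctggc
Ube2c: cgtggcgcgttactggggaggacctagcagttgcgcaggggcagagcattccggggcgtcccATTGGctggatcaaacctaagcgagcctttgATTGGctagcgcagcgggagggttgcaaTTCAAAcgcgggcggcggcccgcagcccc
Birc5: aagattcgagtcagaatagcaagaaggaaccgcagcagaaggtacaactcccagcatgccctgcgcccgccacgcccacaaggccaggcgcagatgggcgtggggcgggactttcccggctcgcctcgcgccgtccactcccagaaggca

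Between 250 bases before and 50 bases after the start, 4 of the 5 promoters held at least 1 CHR and at least 1 CCAAT box. The nearest CHR began 98 bases before the start in Mki67, 23 in Top2a, 15 in Cdk1 and 29 in Ube2c, while Birc5 had neither motif in this window. Of all 27025 genes with a RefSeq promoter entry, 21.7% held a CHR, 41.1% a CCAAT box and 8.61% both. A match of letters is a description of the sequence and not a bound site.

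The dividing cells fell unevenly over the libraries, 19 in the control, 100 in EC-iCOUPOE replicate 1 and 14 in replicate 2. As a share of EC they made up 0.770% in the control (95% Clopper-Pearson interval 0.464-1.20%), 2.21% in replicate 1 (1.81-2.69%) and 1.31% in replicate 2 (0.716-2.18%). The interval of replicate 1 lay above that of the control, and the interval of replicate 2 overlapped both. All intervals here cover counting error only. With 1 control library no test of genotype was run.

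Dividing cells were deeply sequenced, which bears on a rule that counts UMIs. Their median depth was 10805 UMIs in the control, 5600 in replicate 1 and 4948 in replicate 2, against 2286, 2964 and 2291 in other EC of the same libraries. Every EC was therefore thinned to 1000 UMIs, which no cell fell short of, and counted when at least 2 UMIs of the 5 genes remained. That share was 0.446% in the control (11 cells; 0.223-0.796%), 1.73% in replicate 1 (78 cells; 1.37-2.15%) and 0.747% in replicate 2 (8 cells; 0.323-1.47%), the same order as without thinning.

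**Figure D1:**
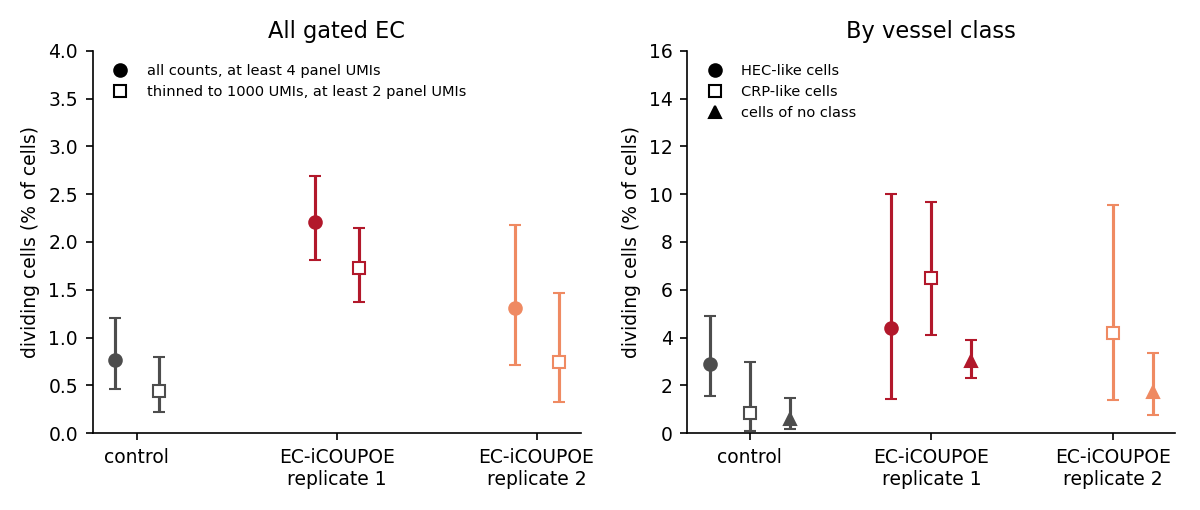
Percent of EC that were dividing in each library (left) and within HEC-like, CRP-like and unclassed EC of each library (right). Bars are 95% Clopper-Pearson intervals, and groups with fewer than 10 cells are left out. The arterial-like, CapEC-like, PCV-like and lymphatic-like classes, which held few or no dividing cells, are not drawn. EC-iCOUPOE replicate 1 is highest at 2.21% and the control lowest at 0.770%, and within the control the HEC-like class stands highest at 2.90%.

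Few cells lay at the edge of the rule. Exactly 4 UMIs of the 5 genes were found in 0 control, 4 replicate 1 and 0 replicate 2 cells, and exactly 3, just outside, in 1, 9 and 2 cells. The median dividing cell held 14 such UMIs in the control (5 to 59), 16 in replicate 1 (4 to 64) and 9.5 in replicate 2 (5 to 26). Mki67 was found in 18 of 19, 83 of 100 and 6 of 14 dividing cells, and Birc5 in 17, 95 and 11, so no single gene of the 5 marked every cell. These values chose the cells and are given as a description.

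The dividing cells carried endothelial transcripts, which the gate itself asked for. The 5 gate genes gave a median of 28 UMIs per dividing cell in the control (15 to 41), 19.5 in replicate 1 (3 to 73) and 11.5 in replicate 2 (5 to 22). Pecam1, the adhesion molecule CD31, stood at 811, 743 and 538 CPM (the UMIs of a gene per 1e6 UMIs of the pooled cells) in dividing EC of the control, replicate 1 and replicate 2, against 1053, 867 and 818 CPM in other EC. Its log2 ratio of dividing to other EC was -0.40 ± 0.19 (SD, n = 3 libraries), a small difference in the same direction in each library. Of 15 endothelial identity genes, the gate genes included, 14 passed the minimum described below and 1, Cldn5, was 2-fold lower in all 3 libraries, where 0.687% of all genes counted were. By any amount, 12 of the 14 lay below other EC in every library, as did 696 of all 3055 genes counted. Their median log2 ratio was -0.58 for the 14 genes. Ptprc, the pan-leukocyte gene CD45, was at 0 UMIs in the dividing cells of all 3 libraries, as was Cd3e, a defining gene of T cells.

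Markers of other cell types were low but not all at the level of other EC. The 10-gene leukocyte list gave 106, 67.4 and 27.6 CPM in dividing EC of the control, replicate 1 and replicate 2 (22, 44 and 2 UMIs) against 61.8, 21.0 and 5.30 CPM in other EC. Its most abundant gene was Coro1a, an actin regulator of blood cells, in the control (13 UMIs) and Fcer1g, an Fc receptor subunit, in replicate 1 (20 UMIs), and 8, 4 and 8 of its 10 genes were at 0 UMIs. In the control 5 of 19 dividing cells held 2 or more of these UMIs, in replicate 1 4 of 100 and in replicate 2 0 of 14. With at least 6 UMIs of the gate genes asked for, the list fell to 17.7 CPM in the dividing cells of replicate 1 and stayed at 106 CPM in the control. The 12-gene B cell list stood at 33.8, 42.9 and 27.6 CPM. Cd74, the invariant chain that antigen-presenting EC can also express, gave 6 of 7, 25 of 28 and 1 of 2 of its UMIs. Fibroblast genes gave 164, 3.07 and 0 CPM against 110, 21.7 and 13.6 CPM in other EC. In the control 5 of 19 dividing cells (26.3%) held 2 or more of their UMIs against 5.47% of other EC. Such a share rises with depth, and the median depths of these cells were 10805 and 2286 UMIs. T and NK cell genes gave 4.83, 16.9 and 0 CPM against 11.3, 45.5 and 47.7 CPM, pericyte genes 9.65, 56.7 and 41.4 CPM against 291, 499 and 230 CPM, and erythrocyte genes 0, 1.53 and 0 CPM against 1078, 54.0 and 39.0 CPM. Removing cells with 2 or more leukocyte, B or T cell UMIs (Cd74 not counted) left shares of 0.519%, 2.18% and 1.35%, in the same order. A doublet caller marked 0 of the 133 cells, but it marked few cells at all in the EC-iCOUPOE libraries.

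Outside the 5 genes, the transcripts higher in dividing EC were mostly those of the cell cycle. Of 3055 genes with at least 50 UMIs over the dividing cells, 231 (7.56%) were at least 2-fold higher in dividing than other EC in all 3 libraries and 21 (0.687%) at least 2-fold lower. Without replicate 1, which gave 100 of the 133 cells, 84 were higher and 9 lower, and the lower genes numbered 43 with a minimum of 20 UMIs and 52 where the UMIs expected from other EC could meet the minimum of 50. The median log2 ratio over these genes was 0.03. Of the 231, 128 belonged to the cell cycle lists used here. The dividing cells had been picked on transcripts that move with these, so the counts describe the cells and were not tested. A gene could also pass the minimum of 50 UMIs by being high in dividing cells, so list members are counted below out of all members as well as out of those that passed.

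S phase genes were higher in number and by a moderate factor. Of the 43 genes of the S phase list 28 passed the minimum, 26 of them were higher and 0 lower, with a median log2 ratio of 3.17. Mcm5, a subunit of the replicative helicase, measured 169, 124 and 193 CPM in dividing EC of the control, replicate 1 and replicate 2 against 8.76, 13.0 and 8.33 CPM in other EC, a log2 ratio of 4.02 ± 0.68 (SD, n = 3 libraries). Tyms, which makes thymidylate, stood at 309, 308 and 290 CPM against 23.3, 30.6 and 29.5 CPM (3.45 ± 0.24). Rrm2, the S phase subunit of ribonucleotide reductase, reached 261, 307 and 427 CPM from 1.11, 1.64 and 2.27 CPM (7.66 ± 0.19).

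The wider replication set behaved alike. Of 28 licensing and fork genes 18 passed the minimum and 17 were higher, and of 12 nucleotide synthesis genes 9 passed and 8 were higher. Pcna, the sliding clamp of DNA polymerase, was uneven between libraries at 280, 101 and 689 CPM in dividing EC against 37.0, 22.5 and 93.1 CPM in other EC, yet its log2 ratio stayed at 2.66 ± 0.42. Slbp, which binds the ends of histone mRNAs, had the steadiest ratio of the genes named here, 2.02 ± 0.03, from 265, 273 and 496 CPM against 66.6, 67.5 and 119 CPM.

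G2/M genes showed larger ratios. Of the 49 genes of the G2/M list 40 passed the minimum, 38 of them were higher and 0 lower, with a median log2 ratio of 5.75. All 22 kinetochore and checkpoint genes that passed, of 24, were higher, with a median of 6.43, and likewise all 22 spindle, motor and cytokinesis genes that passed, of 26, with a median of 6.17. The 16 of 17 condensin, cohesin and lamina genes that passed included 14 higher, with a median of 2.66.

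**Figure D2:**
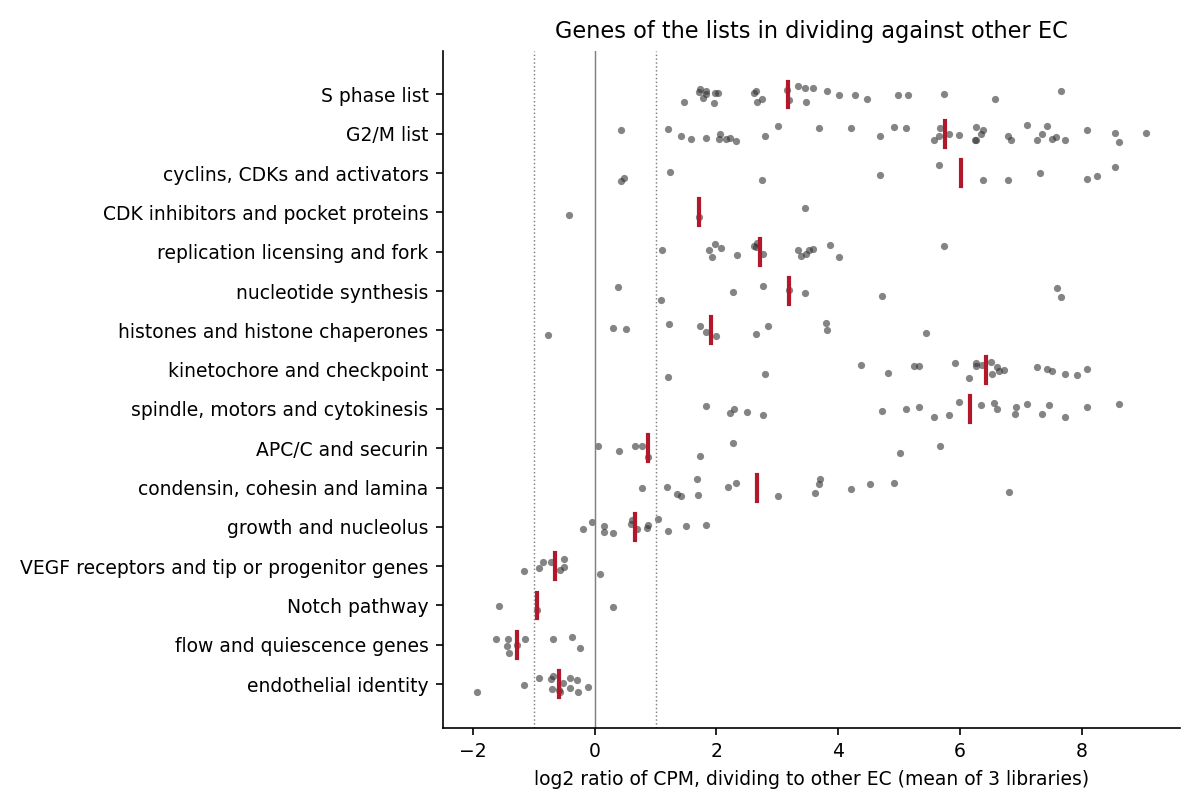
Mean log2 ratio of dividing to other EC over the 3 libraries, by gene list. Shown are genes that passed the minimum of 50 UMIs and had a ratio in every library. Red bars are list medians and dotted lines mark a 2-fold difference. The kinetochore and spindle lists lie highest, with medians of 6.43 and 6.17, the S phase list at 3.17, and the flow list at -1.27.

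Several of these transcripts were almost absent from other EC. Nusap1, which bundles spindle microtubules, measured 183, 247 and 221 CPM in dividing EC of the control, replicate 1 and replicate 2 (38, 161 and 16 UMIs) and 0.493, 0.443 and 0.757 CPM in other EC, a log2 ratio of 8.62 ± 0.47 (SD, n = 3 libraries). Ccna2, the cyclin of S phase and early mitosis, measured 183, 254 and 372 CPM against 0.493, 0.443 and 1.51 CPM (8.55 ± 0.61). Aurkb, the kinase of the chromosomal passenger complex that also holds Birc5, gave 111, 201 and 110 CPM against 0.370, 0.886 and 0.379 CPM (8.08 ± 0.22). By the smallest of the 3 ratios, the 10 highest genes were Nusap1, Esco2, Hmmr, Ccna2, Pbk, Aurkb, Pimreg, Mxd3, Rrm2 and Plk1. For Mxd3, a MAX-binding repressor, other EC of the control held 0 UMIs, so its log2 ratio there was at least 7.71, taking a floor of 3 UMIs over the group.

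The cyclins named here differed from each other. Ccnb2, a mitotic cyclin, had log2 ratios of 6.76, 6.68 and 6.92 (227, 371 and 276 CPM in dividing EC), and Ccnb1, its partner in mitosis, of 8.05, 7.36 and 6.51. Ccnd1, the G1 cyclin that answers growth factors, was not 2-fold higher in any library, at 323, 248 and 110 CPM against 171, 232 and 81.8 CPM in other EC (0.48 ± 0.42). Ccnd2 pointed the other way in each library, at 4.83, 19.9 and 41.4 CPM against 58.7, 91.3 and 118 CPM, but rested on 1, 13 and 3 UMIs in dividing cells and did not pass the minimum. Of the whole list of 21 cyclins, kinases and activators 12 passed and 9 were higher.

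Inhibitors of the cycle were not lower as a group. Cdkn2c (p18), an inhibitor of the cyclin D kinases, was higher in dividing EC at 96.5, 244 and 165 CPM against 11.8, 18.8 and 13.3 CPM (3.46 ± 0.37). Cdkn1a (p21), a target of p53, lay slightly below other EC at 188, 256 and 662 CPM against 311, 298 and 839 CPM (-0.43 ± 0.26). Cdkn1b (p27) gave 0, 37 and 5 UMIs, too few for a statement in the control and replicate 2. Only 3 of the 10 genes of this list passed the minimum.

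Of the factors that switch on these genes few were abundant. E2f1, an activator of S phase genes, measured 67.6, 46.0 and 82.7 CPM against 1.60, 3.48 and 2.27 CPM (4.77 ± 0.91). Foxm1 and Mybl2, which act on CHR-bearing promoters, gave 9, 29 and 5 and 9, 13 and 1 UMIs in dividing EC and did not pass the minimum, and in all, 3 of the 17 genes of this list passed and 2 were higher. Of 18 growth genes 14 passed and 2 were higher, where 7.56% of all genes counted were. Npm1, a nucleolar protein of ribosome assembly, measured 999, 791 and 745 CPM against 661, 630 and 404 CPM (0.60 ± 0.28).

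Chromatin proteins were among the most abundant of the higher transcripts. Of 18 genes of histones and their chaperones 15 passed the minimum, of which 8 were higher, 0 lower and 7 not called. The median log2 ratio was 1.91 over the 12 of them with a usable ratio. H2afz, the replication-independent histone variant H2A.Z, stood at 3485, 3819 and 3323 CPM in dividing EC of the control, replicate 1 and replicate 2 and at 526, 565 and 403 CPM in other EC (2.84 ± 0.17). Hmgb2, a DNA-bending chromatin protein, measured 927, 2009 and 2606 CPM against 62.0, 107 and 115 CPM (4.21 ± 0.30), and Lmnb1, of the nuclear lamina, 106, 231 and 248 CPM against 4.56, 9.55 and 11.7 CPM (4.51 ± 0.10). Stmn1, a microtubule destabiliser, was far lower in the control than in both EC-iCOUPOE libraries, at 314, 2881 and 2758 CPM, and so were other EC at 16.4, 81.6 and 103 CPM, which left its ratio at 4.71 ± 0.44.

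The anaphase-promoting complex was mixed. Of the 14 genes of its list 9 passed the minimum and 4 were higher, Cdc20, Ube2s, Fbxo5 and Fzr1, which are its activators, a partner enzyme and an inhibitor, with log2 ratios of 5.68 ± 0.89, 2.28 ± 0.34, 5.02 ± 0.81 and 1.72 ± 0.66. The subunits Anapc5, Anapc11, Anapc13 and Cdc26 lay between 0.05 and 0.77. Pttg1 (securin), the inhibitor of sister chromatid separation, differed between libraries. In the control it measured 188 CPM in dividing and 8.14 CPM in other EC, a log2 ratio of 4.53. In replicate 1 it measured 104 and 127 CPM and in replicate 2 55.2 and 169 CPM, ratios of -0.28 and -1.61. The 4 UMIs of replicate 2 make its value imprecise.

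The CHR and the CCAAT box were frequent among the genes higher in dividing EC. Of the 231 genes, 189 had a RefSeq promoter entry, of which 81 (42.9%) held a CHR, 132 (69.8%) a CCAAT box and 62 (32.8%) both. Among all 2462 of 3045 counted gene symbols with an entry the shares were 17.7%, 45% and 8.33%. Of the 43 of 49 G2/M genes with an entry, 32 (74.4%) held a CHR and 25 (58.1%) both motifs. For the S phase list the count is void, because an entry was found for 31 of its 43 genes, too small a part of the list.

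Phase was called in each cell from the S phase and G2/M lists without the 5 genes. In the control 10 of 19 dividing cells were called S (52.6%, 28.9-75.6%) and 9 G2/M (47.4%, 24.4-71.1%). In replicate 1 23 of 100 were called S (23.0%, 15.2-32.5%), 76 G2/M (66.4-84.0%) and 1 G1, and in replicate 2 2 of 14 were called S (14.3%, 1.78-42.8%) and 12 G2/M (85.7%, 57.2-98.2%). For both phases the interval of the control overlapped those of both EC-iCOUPOE libraries.

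Phase calls were also made outside the dividing cells, and they are a description of list levels. Among other EC, 27.2% in the control, 13.3% in replicate 1 and 2.18% in replicate 2 were called S, and 7.47%, 1.77% and 7.66% G2/M. Of the 183, 78 and 81 other EC called G2/M, 4, 9 and 6 held any UMI of the 5 genes. The rule itself selects cells with mitotic transcripts, and the dividing cells of the control were the deepest. Of the cells that counted as dividing after thinning to 1000 UMIs, 36.4%, 17.9% and 0% in the control, replicate 1 and replicate 2 were called S. Their phase was called on all counts and not on the thinned ones. The ratio of G2/M to S list CPM within each dividing cell needs no call, and it put replicate 1 rather than replicate 2 highest. Its log2 value had a median of 0.33 in the control (-1.15 to 4.41), 1.66 in replicate 1 and 0.93 in replicate 2 (-0.38 to 4.61), and the libraries overlapped widely.

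**Figure D3:**
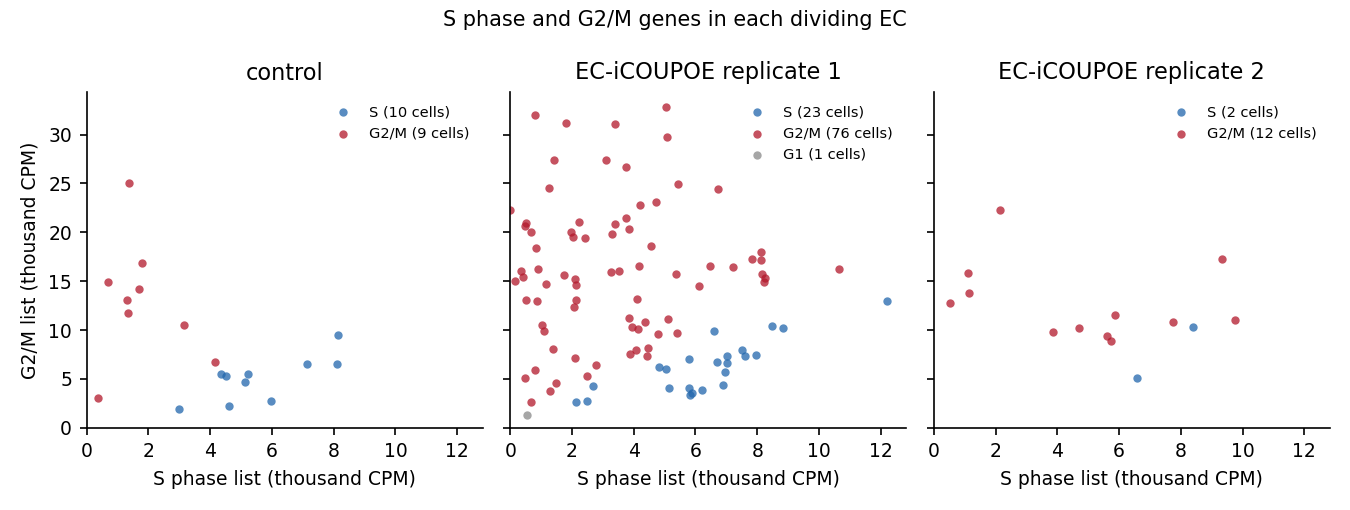
S phase list level against G2/M list level (axes in 1000 CPM) in each dividing EC of the 3 libraries, coloured by called phase (the 5 genes of the rule left out). The 19, 100 and 14 cells cover overlapping ranges, with G2/M list CPM from 1321 to 32787 in replicate 1 and from 1945 to 25066 in the control.

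Dividing EC were next assigned to vessel types by 6 marker lists. Each cell took the class of its highest list (mean log2 level over the list relative to the average EC), or no class when no list was above 0. In the control 13 of 19 dividing cells were HEC-like (68.4%, 43.4-87.4%) against 436 of 2450 other EC (17.8%, 16.3-19.4%), 2 were CRP-like (10.5% against 9.67%) and 4 had no class (21.1% against 28.0%). No dividing control cell was arterial-like, CapEC-like, PCV-like or lymphatic-like, where other EC held 23.8%, 11.3%, 9.51% and 0%. With 19 cells, a count of 0 allows a share of up to 15.8%, a limit set here and below at 3 counts of the total (the Clopper-Pearson bound is 17.6%).

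The 13 cells carried HEC transcripts at a high level, which the class rule itself asked for. Their 12-gene HEC list had a median of 64743 CPM per cell, against 85995 CPM in other HEC-like EC and 571 CPM in arterial-like EC, which should lack it, at median depths of 11538, 7449 and 2078 UMIs. Glycam1, the mucin-like ligand of L-selectin, was found in all 13 cells, from 1426 to 83551 CPM with a median of 40128 CPM. Madcam1, the mucosal addressin bound by integrin α4β7, ran from 3709 to 15827 CPM with a median of 9336 CPM. The lymphatic list, of which Ccl21a is also a HEC gene on the HEC list, had a median of 4193 CPM in these cells, while Prox1, the lymphatic master regulator, gave 0 UMIs in all 19 dividing control cells.

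CRP-like cells made up more of the dividing than of the other EC in both EC-iCOUPOE libraries. In replicate 1 22 of 100 dividing cells were CRP-like (22.0%, 14.3-31.4%) against 7.16% of other EC (6.41-7.96%). In replicate 2 it was 5 of 14 (35.7%, 12.8-64.9%) against 10.8% (8.98-12.8%), intervals that met at 12.8%. The larger group in each had no class, 60 of 100 (60.0% against 43.5%) and 8 of 14 (57.1% against 43.1%). The capillary list had medians of 7768 and 7003 CPM per cell in these cells, below the 10613 and 7639 CPM of other EC with no class, and the CRP list stood at 929 and 1326 CPM against 833 and 842 CPM. In the CRP-like dividing cells the 14-gene CRP list had medians of 2766 and 2968 CPM, against 3028 and 3584 CPM in other CRP-like EC and 757 and 691 CPM in arterial-like EC. Apln itself was found in only 4 of the 22 and 2 of the 5 cells, and 13 of the 22 and 3 of the 5 lay near a class border, so the class rests on the list as a whole.

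**Figure D4:**
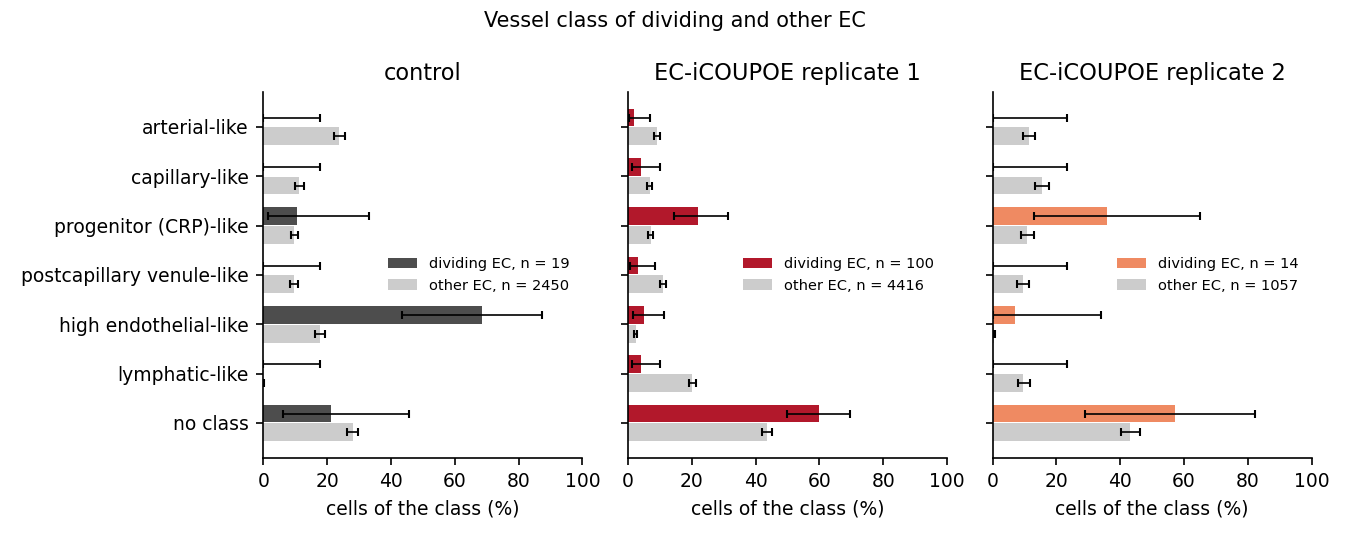
Share of dividing and of other EC in each vessel class, by library, with 95% Clopper-Pearson intervals. In the control 68.4% of dividing EC were HEC-like against 17.8% of other EC, and in replicates 1 and 2 22.0% and 35.7% were CRP-like against 7.16% and 10.8%.

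The remaining classes held few dividing cells. Replicate 1 had 5 HEC-like (5% against 2.45% of other EC), 4 CapEC-like (4% against 6.75%), 4 lymphatic-like (4% against 20.1%), 3 PCV-like (3% against 10.9%) and 2 arterial-like cells (2% against 9.04%). The intervals of dividing and other EC did not overlap for the lymphatic-like class (1.10-9.93% against 19.0-21.3%), for the PCV-like class (0.623-8.52% against 10.0-11.9%) or for the arterial-like class (0.243-7.04% against 8.21-9.92%). Replicate 2 had 1 HEC-like cell and 0 in each of the other 4 classes, where a count of 0 of 14 allows up to 21.4%. Apart from the lymphatic check of the labels above, class sizes are not compared between genotypes, since HEC genes that define a class differ between the libraries.

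Seen from the vessel side, 2.90% of HEC-like EC of the control were dividing (13 of 449, 1.55-4.90%) and 4.42% of those of replicate 1 (5 of 113, 1.45-10.0%). Of CRP-like EC the dividing share was 0.837% in the control (2 of 239, 0.102-2.99%), 6.51% in replicate 1 (22 of 338, 4.12-9.69%) and 4.20% in replicate 2 (5 of 119, 1.38-9.53%). In replicate 1 that share lay above those of lymphatic-like (4 of 893, 0.448%, up to 1.14%) and PCV-like EC (3 of 486, 0.617%, up to 1.79%). The control had 0 dividing cells among 582 arterial-like EC, which allows up to 0.515%. Leaving HEC-like cells out of both groups changed the dividing share of the control from 0.770% to 0.297% (6 of 2020), and left 2.16% and 1.22% in replicates 1 and 2.

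Class borders were soft, with 5 of 19, 59 of 100 and 10 of 14 dividing cells within 0.25 log2 units of another class, and HEC-like EC were also the deepest cells. Of the cells that counted as dividing after thinning to 1000 UMIs, 72.7% in the control were HEC-like. In replicates 1 and 2, 15.4% and 37.5% of such cells were CRP-like. Thinning changed which cells counted as dividing, while classes were called on all counts, so the classes themselves were not compared at equal depth.

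Markers pooled over all dividing cells followed the class shares for some lists and not for others. The HEC list stood at 45237, 5750 and 8893 CPM in dividing EC of the control, replicate 1 and replicate 2 against 43179, 8699 and 7431 CPM in other EC, nearly level in the control, where HEC-like cells held 72.2% of the UMIs of dividing and 39.8% of those of other EC and had the lower HEC list level among dividing cells. Without HEC-like cells the HEC list of dividing EC stood at 8341, 4208 and 1664 CPM. The pooled value of replicate 2 thus came mostly from its 1 HEC-like cell. The PCV list measured 5488, 2939 and 3571 CPM against 5979, 4988 and 4959 CPM. The arterial list stood at 275, 575 and 386 CPM against 2051, 1190 and 1683 CPM in other EC. The capillary list measured 1520, 8201 and 5722 CPM against 5138, 9537 and 8151 CPM, and the CRP list 1023, 1422 and 1972 CPM against 956, 1039 and 1357 CPM. Col4a1 alone gave 69 of 212, 405 of 928 and 61 of 143 UMIs of the CRP list in dividing EC. The 5 of its 14 genes that passed the minimum had a median log2 ratio of 0.01, with 2 above and 1 below other EC in every library. Apln, the ligand that marks CRP, was found in 2, 6 and 2 dividing cells, at 53.1, 26.1 and 41.4 CPM against 5.80, 9.74 and 17.0 CPM in other EC, but on 11, 17 and 3 UMIs and with 10 of the 11 control UMIs in 1 cell. Lyve1, a lymphatic hyaluronan receptor, was far below other EC in replicate 1 (67.4 against 569 CPM) and replicate 2 (13.8 against 282 CPM). No gene of the capillary, CRP, HEC or lymphatic lists passed the 2-fold rule in all 3 libraries.

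The 21 genes lower in dividing EC included 3 of the 12 arterial list genes, Cxcl12, Gja4 and Stmn2, where 5 passed the minimum. By the smallest of the 3 ratios, the first 10 were Aqp1, Gas6, Aldoa (ENSMUSG00000030695), Atf3, Rasa4, Cxcl12, Stmn2, S100a6, Cldn5 and Gja4. Aqp1, a water channel, measured 140, 147 and 179 CPM against 476, 413 and 498 CPM (-1.58 ± 0.16). Cxcl12, a chemokine of arterial EC, measured 77.2, 49.0 and 55.2 CPM against 479, 119 and 308 CPM (-2.13 ± 0.74), and Cldn5, of tight junctions, 57.9, 296 and 234 CPM against 563, 744 and 540 CPM (-1.94 ± 1.17). Of 12 flow and quiescence genes 9 passed the minimum and all 9 lay below other EC in every library, as did 696 of all 3055 genes counted, but of these 9 only Txnip, an inhibitor of glucose uptake, and Gja4, an arterial connexin, by 2-fold in each.

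Few of these genes remained lower once the vessel makeup was matched. When other EC of each library were weighted to the vessel classes of its dividing cells, 224 genes were higher (7.33%) and 6 lower (0.196%), of which 218 and 4 were shared with the unweighted lists. Gas6, Aldoa, Atf3 and Cxcl12 were the 4 genes lower in both, which left 1 of the 5 arterial genes. The weighting was chosen after the makeup had been seen.

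Klf2, the flow-induced factor of quiescent EC, differed little, at 1873, 1195 and 2427 CPM against 2442, 1803 and 2698 CPM (-0.38 ± 0.22), and Klf4 somewhat more at 265, 242 and 193 CPM against 643, 397 and 520 CPM (-1.14 ± 0.38). Kdr, the main VEGF receptor, measured 203, 337 and 290 CPM against 330, 456 and 433 CPM (-0.57 ± 0.13). None of the 8 of 19 VEGF and tip cell genes and none of the 3 of 12 Notch genes that passed the minimum met the 2-fold rule. Of all genes counted 7.56% met it as higher and 0.687% as lower. By any amount, 7 of the 8 and 2 of the 3 lay below other EC in every library, as did 696 of all 3055 genes counted.

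Nr2f2 was higher in dividing EC of both EC-iCOUPOE libraries, and the counts do not separate transgene from endogenous transcripts. Nr2f2 (chr7:70351944-70366735, minus strand, GRCm38), which encodes COUP-TFII, a factor of venous identity, measured 145 CPM in dividing EC of the control (30 UMIs), 1267 CPM in replicate 1 (827 UMIs) and 827 CPM in replicate 2 (60 UMIs). The log2 ratio to the control was 3.13 in replicate 1 (2.61 to 3.71) and 2.51 in replicate 2 (1.86 to 3.20), a mean of 2.82 ± 0.44 (SD, n = 2 libraries). Other EC gave 122, 1636 and 1101 CPM, ratios of 3.75 and 3.18. Among cells, 98 of 100 dividing EC of replicate 1 and 14 of 14 of replicate 2 held at least 1 Nr2f2 UMI, against 14 of 19 in the control, whose cells were the deeper ones.

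Within the dividing cells, 2271 genes reached 50 UMIs in some library, and 209 of them were at least 2-fold higher in both EC-iCOUPOE libraries than in the control (9.20%) and 36 at least 2-fold lower (1.59%). These counts depend on the library: with replicate 2 alone against the control they were 56 higher and 79 lower, and with replicate 1 alone 390 and 85. A gene could pass the minimum through the 1 library where it was high, so the counts of list members below describe those that passed. In other EC it was 668 of 10697 (6.24%) and 243 (2.27%). Of the 209 and 36, 64 and 18 were called in other EC too. The 2 comparisons use the same 3 libraries, and 19 control cells, 13 of them HEC-like, stand behind every control value.

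Of all genes counted 9.20% were higher and 1.59% lower, and the small counts of division genes below were not tested against these shares. Of the 36 G2/M genes that passed, 2 were higher and 0 lower in both EC-iCOUPOE libraries, and of the 17 S phase genes 0 and 0. Of 18 kinetochore and checkpoint genes 2 were higher, of 19 spindle genes 2, and of 12 licensing and fork genes 1. Of 12 condensin, cohesin and lamina genes 3 were higher and 0 lower, namely Hmgn2, Hmgb2 and Lmnb1, with mean log2 ratios of 2.58, 1.30 and 1.17. Of 13 histone genes and chaperones 3 were higher and 0 lower, H2afx by 1.31 and a pair of H2A genes by more. Hist1h2ae (chr13:23570517-23571220, minus strand) gave 1, 239 and 29 UMIs in dividing EC of the control, replicate 1 and replicate 2, or 4.83, 366 and 400 CPM, log2 ratios of 6.25 (3.75 to 11.56) and 6.37 (3.78 to 11.72) whose intervals are wide because of the single control UMI. Hist1h2ap (chr13:21833026-21833507, minus strand) gave 1, 302 and 18 UMIs and ratios of 6.58 (4.09 to 11.89) and 5.68 (3.02 to 11.06). Both encode replication-dependent H2A, near-identical copies of which lie in the same cluster, so the share of reads that each received is uncertain. Hist1h1b, a linker histone, gave 0, 175 and 1 UMIs, high in replicate 1 only. H2afz, by contrast, differed by 0.13 and -0.07 on the log2 scale.

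Madcam1 and Glycam1, ligands of lymphocyte homing receptors, were lower. Madcam1 (chr10:79664559-79668537, plus strand) measured 8408, 2265 and 2826 CPM in dividing EC of the control, replicate 1 and replicate 2, log2 ratios of -1.89 and -1.57 (-1.73 ± 0.23, SD, n = 2 libraries), against -1.04 and -1.21 in other EC. Glycam1 (chr15:103562759-103565081, minus strand) gave 5800, 738 and 0 UMIs, or 27996, 1131 and 0 CPM. It was without a UMI in 2 of 19 control cells, 92 of 100 cells of replicate 1 and 14 of 14 of replicate 2, and a single cell held 518 of the 738 UMIs of replicate 1. A UMI alone did not mark expression in the control, where 25.8% of arterial-like EC (22.3-29.5%), which should lack Glycam1, held one at a median depth of 2078 UMIs, against 10805 UMIs in the dividing cells. That share was 0.752% in replicate 1 and 0 of 119 (0 to 3.05%) in replicate 2, at median depths of 2864 and 2301 UMIs. The log2 ratio was -4.63 in replicate 1 and, against a floor of 3 UMIs over the group, Glycam1 was at least 9.40 lower in replicate 2. Nkx2-3, the homeodomain factor that activates Madcam1, measured 237, 247 and 179 CPM and passed in neither direction. St6gal1, a sialyltransferase, gave 2, 12 and 4 UMIs, too few to be counted.

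**Figure D5:**
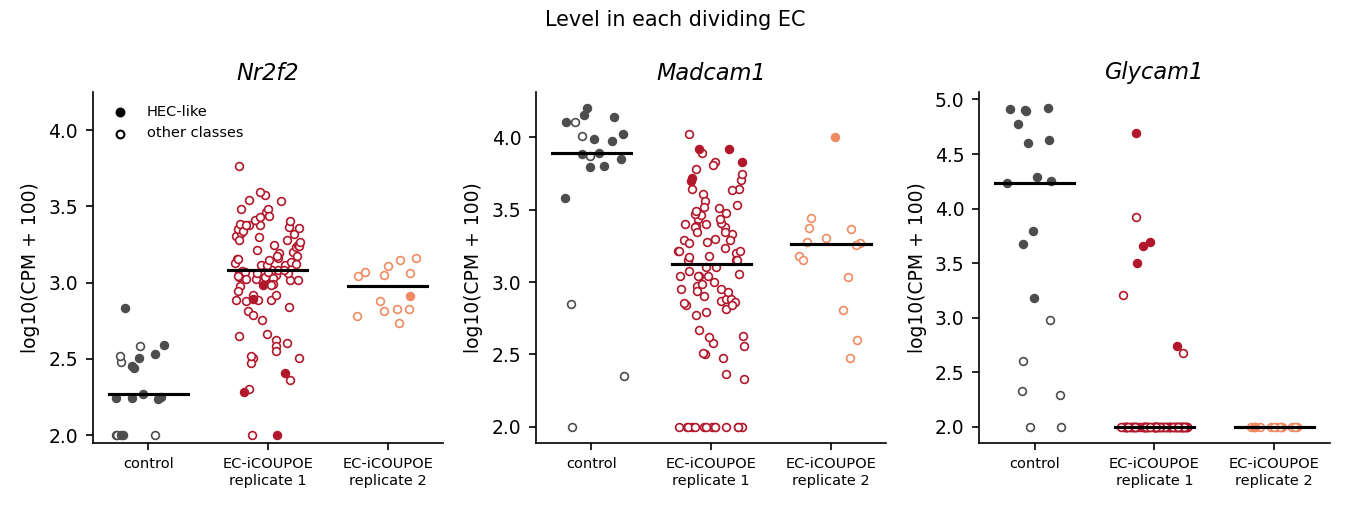
Level of Nr2f2, Madcam1 and Glycam1 in each dividing EC, as log10(CPM + 100), by library; 2.0 marks a cell with 0 UMIs, filled points are HEC-like cells and bars are medians. Nr2f2 is higher in both EC-iCOUPOE libraries, while Glycam1 lies at 0 UMIs in 92 of 100 and 14 of 14 of their cells.

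Within replicate 1 the 5 HEC-like dividing cells lay low in Nr2f2, from 0 to 870 CPM with a median of 157 CPM, while the 95 other dividing cells ran from 0 to 5761 CPM with a median of 1116 CPM, so the ranges overlapped. The 13 HEC-like dividing cells of the control had a median of 86.7 CPM and the single one of replicate 2 stood at 712 CPM. These cells were picked out after their values had been seen.

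Other genes of the HEC list were lower too. Of 7 HEC list genes that passed, of 12, 5 were lower in both EC-iCOUPOE libraries and 0 higher, where 1.59% of all genes counted were lower. The 5 include Madcam1 and Glycam1. Genes of this list could pass through the HEC-rich control cells, and without HEC-like cells 3 of 6 were lower, where 2.09% of all genes counted were. That left 6 control cells, and the 4 of them with no class still had a HEC list median of 11082 CPM. Enpp2 (autotaxin), which makes lysophosphatidic acid, measured 1043, 225 and 386 CPM (-1.82 ± 0.55), and Fut7, the fucosyltransferase of selectin ligands, 367, 75.1 and 27.6 CPM. Ubd, a ubiquitin-like protein, measured 3524, 184 and 758 CPM, the value of replicate 2 coming entirely from its 1 HEC-like cell. The 10 lowest genes by the smaller ratio were Serpina1b, Glycam1, Clu, Serpina3g, Psmb7, Tgfbi, Fut7, Cd24a, Ubd and Rfk. Serpina1b, an antitrypsin, measured 3224, 26.1 and 0 CPM and Clu (clusterin) 6767, 696 and 27.6 CPM.

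Capillary genes were higher over all dividing cells, but mostly not once HEC-like cells were left out. Of 8 of 12 capillary list genes that passed, 6 were higher and 0 lower, where 9.20% of all genes counted were higher. Without HEC-like cells, which were 13 of the 19 control cells, 1 of 7 was higher, where 9.15% of all genes counted were. This was Rbp7, on 1 control UMI. The summed list then stood at 3979, 8510 and 6477 CPM where it had 1520, 8201 and 5722 CPM. Fabp4, a fatty acid carrier of CapEC, measured 1091, 7132 and 4467 CPM (2.37 on the log2 scale), Rgcc 33.8, 78.2 and 152 CPM (1.69) and the fatty acid transporter Cd36 53.1, 141 and 386 CPM (2.14). Rgcc, with 7, 51 and 11 UMIs, and Cd36, with 11, 92 and 28 UMIs, reached the minimum of 50 UMIs in replicate 1 only. Without HEC-like cells the log2 ratios of replicates 1 and 2 were 1.28 and 0.75 for Fabp4, -0.07 and 1.05 for Rgcc and -0.10 and 1.55 for Cd36. The 10 highest genes were Hist1h2ae, Hist1h2ap, Ftl1-ps1, Thbs1, Pcp4l1, Rsad2, Ly6a, Spry1, Timp3 and Mettl23. Ly6a (Sca-1) measured 111, 1991 and 1834 CPM (4.11 ± 0.08) and Timp3, an inhibitor of metalloproteinases, 53.1, 627 and 1048 CPM (3.93 ± 0.52). Ftl1-ps1 is a pseudogene that shares reads with its parent gene and is uncertain, and Thbs1, Rsad2, Spry1 and Mettl23 each rest on 1 control UMI.

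The dividing cells of the control were mostly HEC-like, and the same comparison was therefore made without HEC-like cells, which left 6, 95 and 13 cells. Of 2154 genes 197 were then higher and 45 lower, of which 98 and 19 were shared with the lists over all dividing cells. Nr2f2 measured 122, 1328 and 848 CPM (3.13 ± 0.46), and Madcam1 5248, 2013 and 1517 CPM (-1.59 ± 0.29). The control value of Madcam1 came almost entirely from 3 of the 4 cells with no class (132, 99 and 63 of 302 UMIs), of which 2 lay near a class border, and the HEC list of the 4 had a median of 11082 CPM, while the 2 CRP-like cells held 0 and 1 Madcam1 UMIs (0 and 125 CPM). The CRP-like dividing cells of replicate 1 ranged from 0 to 5463 CPM, with 21 of 22 above 0, and the 5 of replicate 2 from 201 to 2279 CPM, so that within CRP-like cells, 2 of them in the control, Madcam1 was not higher in the control. Madcam1, Glycam1 and Fut7 are on the HEC list by which cells were left out, so cells high in them were removed by the rule itself. The values of these genes are given as a description. Glycam1 measured 261, 244 and 0 CPM, a log2 ratio of -0.10 in replicate 1. The control value, at most 10 UMIs a cell, was near the 343 CPM of arterial-like control EC and is read as background. A single arterial-like cell held 146 of the UMIs behind those 343 CPM. In replicate 1, 122 of the UMIs lay in 1 cell. Fut7 measured 17.4, 48.7 and 0 CPM. Ly6a at 313, 2083 and 1893 CPM kept its direction with smaller log2 ratios, 2.74 and 2.60 where it had 4.16 and 4.05 over all dividing cells. Hist1h2ap at 1, 289 and 18 UMIs gave 4.76 and 4.08 where it had 6.58 and 5.68. Serpina1b measured 2085, 21.1 and 0 CPM, a ratio of -6.63 in replicate 1. This comparison was chosen after the makeup had been seen.

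Xist and Y-linked transcripts sexed only part of the cells. Neither was found in 565 of 2469 control EC, 1585 of 4516 EC of replicate 1 and 345 of 1071 EC of replicate 2, and both were found in 35, 71 and 11. Of EC with Xist UMIs only, 18 of 1755 (1.03%, 0.609-1.62%) were dividing in the control, 38 of 1749 (2.17%, 1.54-2.97%) in replicate 1 and 10 of 530 (1.89%, 0.908-3.44%) in replicate 2. Of EC with Y UMIs only it was 0 of 114, which allows up to 2.63%, 26 of 1111 (2.34%, 1.53-3.41%) and 1 of 185 (0.541%, 0.0137-2.97%). The intervals of the 2 kinds of cell overlapped within each library. As 71.1% of control EC held Xist UMIs only and 4.62% Y UMIs only, most control EC that could be sexed were female. The shares of EC with Xist UMIs only kept the order of the libraries.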

How the data were processed

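Sorted PP EC were profiled on the 10x Genomics platform (the labels name both the v3 platform and a v2 kit). The authors aligned reads to mm10 with Cell Ranger (3.0.2 per the labels; the file headers give 3.1.0 for EC-iCOUPOE replicate 1) and deposited UMI counts per gene and barcode; this filtered matrix was used as deposited, with no normalized or imputed values. TdTomato and CreERT2 are listed in the control and replicate 2 only, at 0 UMIs in each. The barcodes held 17341398, 17417260 and 3548983 UMIs in the control, replicate 1 and replicate 2, and the dividing EC 207176, 652519 and 72528. The control and replicate 2 share 12 barcodes, 1 of them dividing in either library. No per-sample column was left unused.

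Members and gene lists were chosen with earlier results of these data known. Counts of dividing and of other EC were summed per library and compared as CPM, and a gene was called at 2-fold or more in every library compared; no test was run, since cells are not replicates, the dividing cells were chosen on their own counts and 1 library is the control. Replicates are libraries. The study's legends speak of male and female cohorts and of independent experiments, but neither these nor the labels tie a library to an experiment or give the number of mice pooled in it. Shares have Clopper-Pearson intervals and ratios exact intervals of 2 counts at 95%, for counting error only. The genes named are the 5 of the rule, members of the lists, and the 10 largest in each direction by the smallest ratio, sex-linked genes left out for genotype. The vessel scoring (CPM + 100) was chosen after the files had been seen, while phase was called by scanpy 1.11.5. Scrublet, at an expected 6%, marked 138, 6 and 6 cells as doublets. Promoters of RefSeq GRCm38.p6 were matched by symbol and synonym, and gene positions come from a GENCODE annotation of GRCm38. The 2-fold rule and the intervals were tested on simulated data. Alternatives covered the gate, the threshold, thinning, minimum counts, left-out libraries and TMM scaling (edgeR 4.0.16, R 4.3.3). Python 3.11.15, numpy 2.4.6, scipy 1.17.1, pandas 2.3.3 and matplotlib 3.10.9 were used.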

Additional observations from a re-analysis of the deposited data

Results flagged for a closer look

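The B cell list moved in opposite directions between genotypes. Its log2 ratios of dividing to other EC were -0.46 in the control, 0.75 in EC-iCOUPOE replicate 1 and 0.76 in replicate 2. These rested on 7, 28 and 2 UMIs in dividing cells, of which Cd74 gave 6, 25 and 1. The epithelium list also moved in opposite directions, with 0.88, -0.30 and -3.88, on 4, 5 and 1 UMIs in dividing cells. Neither difference was tested.

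Cells outside the EC gate also held at least 4 UMIs of the 5 genes. There were 4 among 3004 such cells of the control (0.133%), 2 among 234 of replicate 1 (0.855%) and 4 among 172 of replicate 2 (2.33%). They were not counted as dividing EC.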

How the results depend on the processing

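Of 243 values of the main results recomputed under an alternative, 217 stayed within the limits set for a change and 26 moved. Thinning to 1000 UMIs gave dividing shares of 0.446% and 1.73% in the control and replicate 1, S and G2/M calls of 0% and 100% and a HEC-like share of 0% in replicate 2, shares of 0.570% among control EC with Xist UMIs only and 1.53% among replicate 1 EC with Y UMIs only, 11.2 CPM for the leukocyte list in replicate 1, and -2.07 for the log2 ratio of Madcam1. A threshold of 3 UMIs gave -1.97 for Madcam1. Without cells holding leukocyte UMIs Madcam1 was at -1.35 and the leukocyte list at 15.4 CPM in the control and 3.31 CPM in replicate 1; a gate of 6 UMIs put it at 17.7 CPM in replicate 1. Without HEC-like cells the control share was 0.297%. Genes lower in dividing EC numbered 43 with a minimum of 20 UMIs, 52 with 50 UMIs counted or expected from other EC, and 6 with the vessel makeup matched, where Stmn2 and Gja4 turned to 0.17 and 0.33. Leaving out a library gave 84 to 230 higher and 9 to 28 lower genes, the lowest of each without replicate 1, where the minimum of 50 UMIs rests on 33 cells. Between genotypes, a minimum of 20 UMIs gave 505 higher and 87 lower genes, and leaving out a library 56 to 390 higher and 79 to 85 lower, with 56 and 79 without replicate 1 and 390 and 85 without replicate 2. Of 496 values of single genes, 485 kept their direction and call, 9 lost the 2-fold call and 2 reversed. The small number of dividing cells in the control and replicate 2 limits the precision of every value. No paired analysis was possible because 1 control library stands against 2 EC-iCOUPOE libraries; dividing and other EC were compared within each library.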
